A study of Arabidopsis thaliana with 30 samples.

Results

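The mock-treated tcp21 seedlings of Arabidopsis thaliana were compared with mock-treated wild-type seedlings of the Col accession, in 3 RNA-seq libraries of each genotype out of 30 in the series. The 6 libraries were chosen by their column names in 1 count table, and all genes were compared. That rule used no measured value, but the comparison, the gene lists and the tests were set with earlier results of these data known. The table holds 32833 genes, of which 20385 had counts high enough to be tested. All libraries come from whole seedlings aged 6 days. The tcp21 plants are described as CRISPR lines, that is, lines edited in the TCP21 gene, and how many lines were pooled and which bases were edited is not given in the sources used here. The same table holds Col, tcp21 and the multiple mutant tcpq under mock and submergence, in 3 libraries each, and a separate table holds Col and bak1-3 bkk1-1. The genes that tcpq lacks and the length of the submergence are not given either. Separate cultures are not stated for the replicates, and p-values therefore cover the scatter among libraries, which may be technical.

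TCP21, also known as CHE, is a class I TCP transcription factor. Class I TCP proteins bind short GC-rich sites, and TCP21 is known as a repressor of CCA1, a MYB-like factor of the morning arm of the circadian clock. BKK1 and BAK1 are SERK co-receptor kinases that join brassinosteroid and immune receptors, and the series title names BKK1 and TCP21 as partners of a feedback loop. The mock comparison asks how the transcriptome of tcp21 differs from wild type before any submergence.

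The 6 libraries held between 17466180 and 33957452 counts, and replicates had a Pearson correlation of at least 0.976 over log2 levels. The sample fields of the first Col mock library name bak1-3 bkk1-1 as its genotype, while its title and strain name Col, and it was kept as Col. Its BAK1 and BKK1 levels are given below with the others. Levels are in CPM, counts scaled to a library total of 1000000, given as means ± SD with n = 3. Fold changes are log2 values of tcp21 over Col with their SE, and a gene was called when its edgeR quasi-likelihood p, adjusted by the Benjamini-Hochberg method over all genes tested, lay below 0.05. Root markers and nuclear photosynthesis genes were present in all 6 libraries. The 10 seed storage and oil body markers summed to 0.383 to 1.11 CPM in Col and 0.467 to 1.88 CPM in tcp21. Some named genes have an annotated gene on the opposite strand, and since the strand setting of the counting is not given, reads of such a pair cannot be told apart. They are AK3, BCAT4, AT4G34550, SRO5, TCP19, SERK1, SERK2, BAK1, CPD, BES1, LNK1, PIF1, ADH1, DIN10, RCA, SARD1, MPK3, ABI1, CBF3, IAA3, CDKB2-1, KN, HSP101, CSD1, BHLH101, FER1, TCH2, TCH3 and CASP1. In whole seedlings, fewer cells of a type and less RNA per cell cannot be told apart.

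The promoter windows shown here belong to TCP21, to BKK1 and to CCA1, because the known action of TCP21 is on the CCA1 promoter. Each runs from 250 bases before the annotated gene start to 50 bases after it, in the orientation of the gene, from the RefSeq assembly TAIR10.1. The submitters' processing notes name TAIR10. Capitals mark the class I TCP site GGNCCCAC, read on both strands.
TCP21, chr5:2680151-2680450, plus strand: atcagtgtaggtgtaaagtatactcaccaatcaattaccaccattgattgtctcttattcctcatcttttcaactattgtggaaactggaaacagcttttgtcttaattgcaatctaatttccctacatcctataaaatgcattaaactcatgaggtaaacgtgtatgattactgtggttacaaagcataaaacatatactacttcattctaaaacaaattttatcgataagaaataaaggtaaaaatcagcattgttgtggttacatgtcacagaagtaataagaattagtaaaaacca
BKK1, chr2:5741342-5741641, plus strand: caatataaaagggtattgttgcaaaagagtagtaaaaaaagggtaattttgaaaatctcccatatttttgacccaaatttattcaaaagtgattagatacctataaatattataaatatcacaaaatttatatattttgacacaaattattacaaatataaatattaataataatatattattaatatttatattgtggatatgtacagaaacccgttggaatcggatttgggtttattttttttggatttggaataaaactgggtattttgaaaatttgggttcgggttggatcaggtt
CCA1, chr2:19245341-19245640, plus strand: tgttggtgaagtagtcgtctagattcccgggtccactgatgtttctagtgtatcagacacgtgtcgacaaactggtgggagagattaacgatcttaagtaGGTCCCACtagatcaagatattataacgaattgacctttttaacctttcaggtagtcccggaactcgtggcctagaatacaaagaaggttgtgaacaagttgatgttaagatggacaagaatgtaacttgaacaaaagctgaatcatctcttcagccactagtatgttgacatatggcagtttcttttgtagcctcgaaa
The CCA1 window holds 1 match, which begins 150 bases before the gene start, and also 1 G-box (CACGTG), the core bound by PIF and HY5 factors. The TCP21 and BKK1 windows hold no match to these letters or to the evening element AAAATATCT.

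TCP21 (AT5G08330) itself stood at 83.2, 102 and 93.7 CPM in the 3 Col libraries and at 27.9, 28.7 and 33.0 CPM in the 3 tcp21 libraries. Every tcp21 library lay well below every Col library, with a fold change of -1.64 ± 0.10, adjusted p = 2.58e-13. An edit of a few bases need not lower a transcript, so this level describes the lines and does not by itself verify the edit. TCP21 was at 22.1 ± 1.92 CPM in tcpq under mock, and under submergence it was at 78.2 ± 5.01 CPM in Col and 23.3 ± 3.94 CPM in tcp21.

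The transcriptome differed widely between the genotypes. Of 20385 genes, 4842 (23.8%) were higher and 4696 (23%) were lower in tcp21. Member counts of the gene lists below are to be read beside these shares. The differences were mostly moderate, with a median log2 fold change of 0.66 among the higher and -0.62 among the lower genes, and 1556 and 1243 of them reached 2-fold. The 3 libraries of each genotype did not overlap for 4486 of the higher and 4302 of the lower genes. The share over all genes tested was not counted, and a small adjusted p favours such genes, so this adds no support to the calls. The same holds below where genes named for a small p are said not to overlap. The first principal component of the 6 libraries carried 67.3% of their variance and separated the genotypes. Without the Col library whose genotype field disagrees with its title, 8929 genes were called in place of 9538. When the test asked for a change beyond 2-fold, 555 genes were higher and 464 lower.

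**Figure D1:**
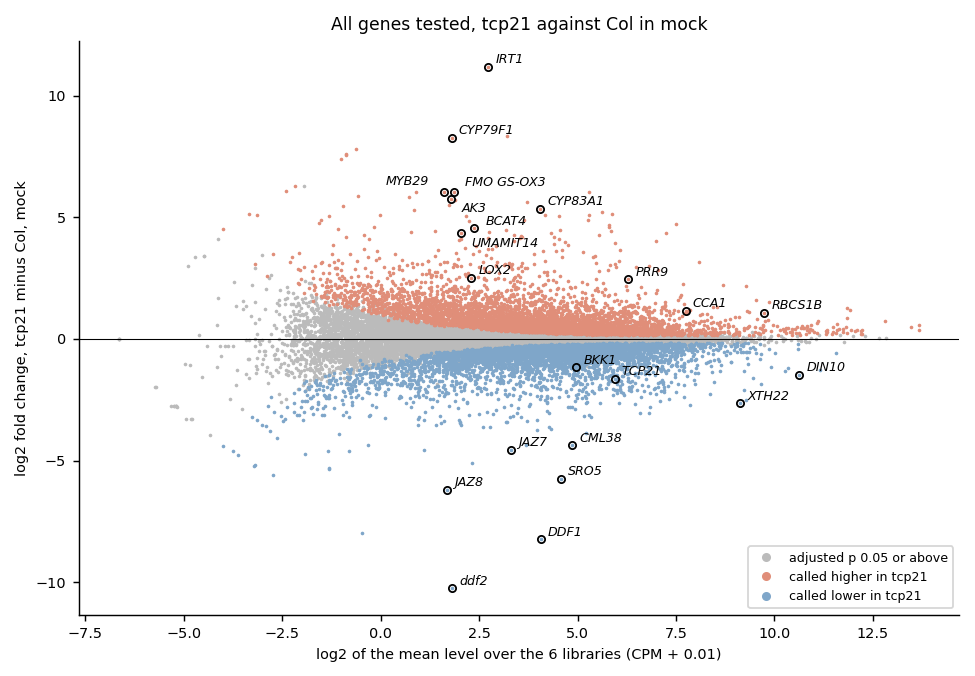
Log2 fold change of tcp21 over Col in mock (vertical axis) against the log2 mean level over the 6 libraries (horizontal axis), 1 point per gene tested. Red and blue points are the 4842 higher and 4696 lower genes, and open circles mark genes described in the text.

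Among the 9 class I TCP genes tested, 5 were lower in tcp21, TCP21 included, and 1 was higher, beside 23% and 23.8% of all genes. TCP14, which acts in cell proliferation and immunity, fell from 64.0 ± 3.59 to 37.3 ± 5.41 CPM (-0.77 ± 0.12, adjusted p = 3.14e-05). TCP8 fell from 46.6 ± 2.97 to 28.6 ± 0.271 CPM (-0.70 ± 0.07, adjusted p = 4.96e-09). TCP19 fell from 1.77 ± 0.316 to 0.5 ± 0.0764 CPM (-1.79 ± 0.35, adjusted p = 0.000126). TCP23 rose from 15.7 ± 0.913 to 23.5 ± 2.68 CPM (0.59 ± 0.11, adjusted p = 7.8e-05). TCP7 was lower by a small margin (-0.26 ± 0.11, adjusted p = 0.0449). That call was lost when any 1 of the 3 Col libraries was left out (adjusted p 0.118, 0.0678 and 0.0765 without replicates 1, 2 and 3) and when the first tcp21 library was (adjusted p = 0.254). It was also lost with upper quartile factors (adjusted p = 0.0923), with the replicate block (adjusted p = 0.0578) and in a fit of the 2 groups alone (adjusted p = 0.0616). TCP15 (-0.08 ± 0.13, adjusted p = 0.621), TCP20 (0.25 ± 0.15, adjusted p = 0.183) and TCP22 (-0.02 ± 0.08, adjusted p = 0.855) were not called. Counts of TCP9, which has an annotated gene on the opposite strand, were 0 in every library of the table. Of the class II genes, the leaf-growth regulator TCP2 rose from 11.2 ± 0.317 to 22.8 ± 1.301 CPM (1.02 ± 0.13, adjusted p = 3.18e-07) and TCP13 fell from 14.6 ± 1.13 to 10.5 ± 1.42 CPM (-0.48 ± 0.11, adjusted p = 0.000837).

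BKK1 was the SERK gene with the lowest level in tcp21 relative to Col. BKK1 (AT2G13790) was at 49.2, 35.6 and 44.2 CPM in Col and at 16.7, 20.04 and 21.0 CPM in tcp21. The groups did not overlap, with a fold change of -1.17 ± 0.11, adjusted p = 7.7e-10. Under submergence the difference was smaller (-0.44 ± 0.10, adjusted p = 0.0016), and the genotype difference under submergence minus that in mock was 0.73 ± 0.15, adjusted p = 0.000323. That test called 31% of all genes and contains the mock values themselves. BAK1 (AT4G33430) was at 78.7, 75.3 and 82.2 CPM in Col and 62.9, 69.6 and 64.7 CPM in tcp21. Its libraries did not overlap either, though the difference was small (-0.26 ± 0.07, adjusted p = 0.00337).

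The wider list of SERK kinases and their partners had 9 of 14 members lower and 2 higher, with a median of -0.45 beside 0.0042 over all genes. The brassinosteroid receptor BRI1 fell from 377 ± 22.5 to 254 ± 15.7 CPM (-0.57 ± 0.07, adjusted p = 2.3e-07). The higher members were SERK2 (0.52 ± 0.10, adjusted p = 4.88e-05) and SERK1 (0.49 ± 0.16, adjusted p = 0.0144). SERK1 was not called without the first Col library (adjusted p = 0.0504), the third Col library (adjusted p = 0.0613) or the second tcp21 library (adjusted p = 0.102). Brassinosteroid signalling genes downstream of the receptor had 7 of 10 members lower and 1 higher. BES1, a transcription factor that carries the brassinosteroid signal into the nucleus, was at 93.1, 82.6 and 83.6 CPM in Col and 46.9, 38.4 and 44.5 CPM in tcp21. All tcp21 values lay below all Col values (-0.998 ± 0.08, adjusted p = 2.59e-11). BEE3, a brassinosteroid-induced bHLH gene, fell from 13.0 ± 2.84 to 1.55 ± 0.42 CPM (-3.07 ± 0.32, adjusted p = 9.83e-07). BKI1, an inhibitor of BRI1, was the higher member (0.81 ± 0.14, adjusted p = 2.04e-05). BIN2, another inhibitor of the pathway, was among the lower members (-0.51, adjusted p = 1.26e-06). Genes of brassinosteroid synthesis and inactivation went both ways, 3 higher and 3 lower of 9 beside 23.8% and 23% of all genes. BR6OX2, which makes the last steps to brassinolide, was higher (1.03 ± 0.14, adjusted p = 4.54e-07) and CPD lower (-0.80 ± 0.08, adjusted p = 4.31e-09). BAS1, which inactivates the hormone, was lower too (-0.83, adjusted p = 5.18e-05).

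Of 10 morning genes of the circadian clock, 8 were higher in tcp21 and 2 were lower, with a median log2 fold change of 0.71. Without the third tcp21 library 7 were higher and 2 lower. CCA1 (AT2G46830) was at 148, 129 and 122 CPM in Col and 284, 325 and 279 CPM in tcp21. The lowest tcp21 library lay far above the highest Col library (1.15 ± 0.09, adjusted p = 1.05e-11). LHY, the close partner of CCA1, was at 80.4, 76.0 and 77.7 CPM in Col and 138, 162 and 143 CPM in tcp21 (0.92 ± 0.10, adjusted p = 1.34e-08). RVE8, a MYB-like activator of evening genes, was at 37.2, 33.5 and 35.3 CPM in Col and 73.7, 81.9 and 81.7 CPM in tcp21 (1.16 ± 0.08, adjusted p = 4.97e-13). Its coactivator LNK1 was higher as well (1.11 ± 0.09, adjusted p = 6.58e-11). The lower members were RVE2 (-0.91 ± 0.11, adjusted p = 9.17e-08) and RVE4 (-0.44 ± 0.08, adjusted p = 5.34e-05).

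Under submergence the CCA1 difference was not called, at 142 ± 9.32 CPM in Col and 146 ± 11.8 CPM in tcp21 (0.04 ± 0.09, adjusted p = 0.764). The genotype difference of CCA1 under submergence minus that in mock was -1.11 ± 0.12, adjusted p = 5.62e-08. The same value was -1.15 ± 0.14, adjusted p = 3.39e-07 for LHY and -1.36 ± 0.11, adjusted p = 1.42e-10 for RVE8. That test called 31% of all genes and contains the mock values of these genes. In tcpq under mock, CCA1 was at 169 ± 7.39 CPM and LHY at 35.7 ± 2.55 CPM, against 296 ± 25.4 and 148 ± 12.8 CPM in tcp21. Both differences between the mutants were called, -0.80 ± 0.09, adjusted p = 5.31e-09 for CCA1 and -2.05 ± 0.10, adjusted p = 2.19e-15 for LHY, in a comparison that called 52.4% of all genes.

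Of the 5 pseudo-response regulator genes, several of which encode repressors of CCA1 and LHY that act in turn through the day, PRR9 and PRR5 were higher and TOC1 was lower. PRR7 (-0.17 ± 0.08, adjusted p = 0.0928) and PRR3 (-0.06 ± 0.38, adjusted p = 0.907), named after their values were seen to complete the family, were not called. PRR9 was at 28.7, 22.7 and 20.2 CPM in Col and 117, 142 and 137 CPM in tcp21, without overlap (2.46 ± 0.10, adjusted p = 2.99e-16). PRR5 was at 1.602, 1.15 and 1.15 CPM in Col and 6.50, 4.63 and 6.86 CPM in tcp21 (2.19 ± 0.26, adjusted p = 5.76e-08). GI, which works in the afternoon and in flowering, rose from 20.2 ± 1.23 to 77.3 ± 16.3 CPM (1.94 ± 0.12, adjusted p = 7.81e-12), and the evening complex gene ELF4 from 0.645 ± 0.304 to 2.07 ± 0.435 CPM (1.64 ± 0.42, adjusted p = 0.00187). TOC1, the evening repressor of CCA1 that binds TCP21, was slightly lower (-0.27 ± 0.09, adjusted p = 0.0154), a call lost without the first Col library (adjusted p = 0.1003). In the evening and daytime list, 5 of 13 genes were higher and 2 lower, beside 23.8% and 23% of all genes. Without the third tcp21 library 6 of 14 were higher and 1 lower, and without the first Col library 5 of 14 were higher and 1 lower. The genotype difference under submergence minus that in mock was -1.56 ± 0.14, adjusted p = 3.65e-09 for PRR9 and -1.04 ± 0.17, adjusted p = 3.57e-05 for GI, in a test that called 31% of all genes and holds the mock values. Both genes stayed higher in tcp21 under submergence.

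Light signalling genes moved both ways. HY5, a bZIP factor that promotes development in light, was at 11.2, 13.1 and 12.5 CPM in Col and 31.2, 40.6 and 31.7 CPM in tcp21 (1.49 ± 0.11, adjusted p = 9.29e-12). The red-light receptor PHYB rose from 48.6 ± 1.22 to 124 ± 14.7 CPM (1.36 ± 0.08, adjusted p = 8.53e-14), and COP1, the ligase that targets HY5, from 37.5 ± 0.222 to 59.7 ± 4.98 CPM (0.67 ± 0.08, adjusted p = 8.92e-08). PIF4, a bHLH factor that promotes elongation, was at 105.3, 100.2 and 105.3 CPM in Col and 47.5, 34.7 and 40.3 CPM in tcp21. Each tcp21 library lay below every Col library (-1.34 ± 0.09, adjusted p = 5.22e-13). PIF5 (-0.78 ± 0.08, adjusted p = 4.97e-09), PIF1 (-1.02 ± 0.14, adjusted p = 7.25e-07) and the blue-light receptor CRY1 (-0.56 ± 0.07, adjusted p = 2.01e-07) were lower too. Over the list, 4 of 13 genes were higher and 7 lower, beside 23.8% and 23% of all genes.

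**Figure D2:**
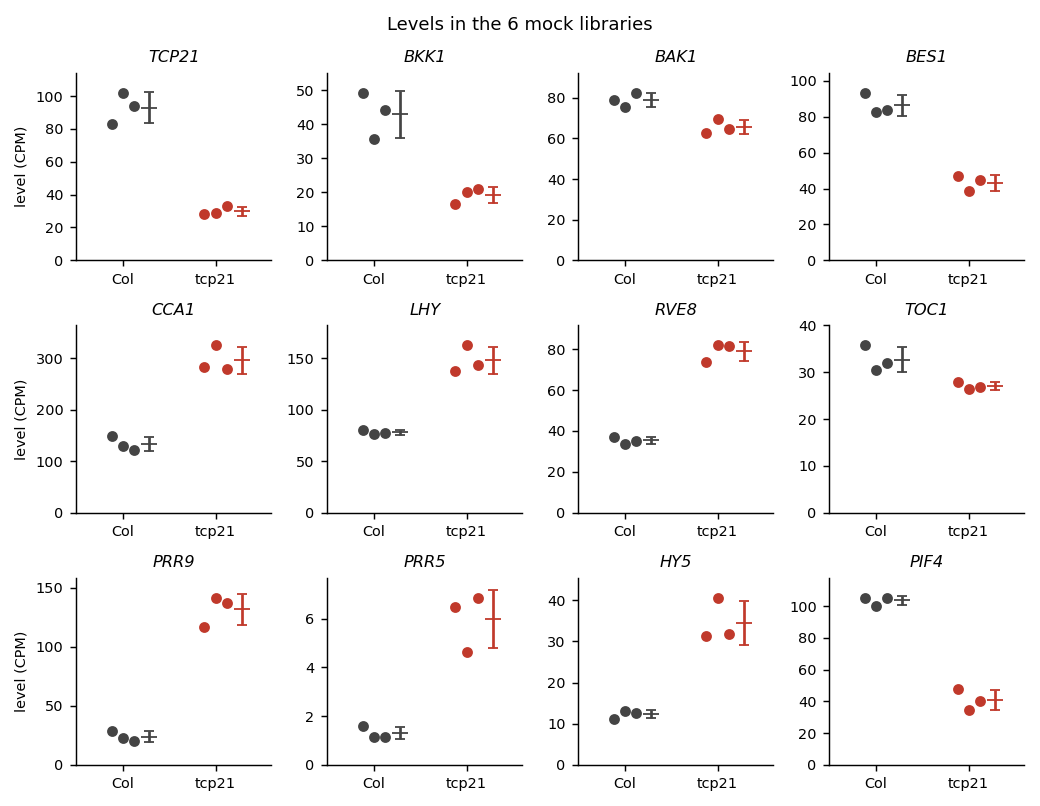
Levels in CPM (vertical axes, from 0) of 12 genes in the 3 Col and 3 tcp21 mock libraries, 1 point per library, with the mean and SD beside them. TCP21, BKK1, BES1 and PIF4 lie lower in tcp21, CCA1, LHY, RVE8, PRR9, PRR5 and HY5 lie higher, and BAK1 and TOC1 differ by less.

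The largest rises were taken among called nuclear genes whose higher group averaged 5 CPM or more and whose libraries did not overlap, and most of the 10 were close to 0 in mock Col. IRT1, the main iron transporter of the root surface, had 0 counts in the 3 Col libraries and 16.9, 14.3 and 8.63 CPM in the tcp21 libraries, at least 265-fold above the limit that 3 counts over the 3 Col libraries allow (adjusted p = 6.57e-07). CYP79F1, the entry enzyme of aliphatic glucosinolate synthesis, was at 0.0445, 0 and 0 CPM in Col and 6.52, 6.75 and 7.53 CPM in tcp21 (adjusted p = 5.4e-14). Next came FMO GS-OX3 (from 0.105 ± 0.138 to 7.13 ± 2.29 CPM), MYB29 (from 0.0912 ± 0.158 to 5.96 ± 0.379 CPM), AK3 (from 0.124 ± 0.178 to 6.70 ± 2.61 CPM) and CYP83A1 (from 0.805 ± 0.603 to 32.1 ± 4.39 CPM). AK3 encodes an aspartate kinase of amino acid synthesis, and the other 3 serve aliphatic glucosinolate synthesis or its control. AT2G27420, annotated as a cysteine proteinase, rose from 2.203 ± 0.904 to 76.4 ± 19.0 CPM (5.09 ± 0.21, adjusted p = 1.55e-13). The F-box gene AT4G34550 (4.42 ± 0.31, adjusted p = 2.9e-12), BCAT4 (4.56 ± 0.29, adjusted p = 3.03e-13) and the EamA-like transporter UMAMIT14 (4.36 ± 0.42, adjusted p = 2.55e-08) completed the 10.

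The aliphatic glucosinolate list rose as a whole, 11 of 11 members, with a median of 3.496. These sulfur-rich defence compounds are made from methionine. MYB29 is a transcription factor that switches on the pathway, BCAT4 and MAM1 extend the methionine chain, BAT5 carries intermediates into the chloroplast, and CYP79F1 and CYP83A1 build the core. MAM1 was at 3.29, 2.08 and 1.72 CPM in Col and 28.7, 25.8 and 26.9 CPM in tcp21 (3.496 ± 0.19, adjusted p = 6.67e-13), and BAT5 at 1.29, 1.53 and 1.04 and 9.12, 10.7 and 10.07 CPM (2.95 ± 0.23, adjusted p = 1.42e-11). No library of one genotype reached the range of the other. The summed level of the list ran from 27.5 to 38.8 CPM in Col mock and from 172 to 184 CPM in tcp21 mock.

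Mock Col had the lowest sum of the 6 groups of the table. The sum was 61.2 to 80.9 CPM in tcpq under mock, 96.0 to 120.0 CPM in submerged Col and 64.6 to 89.9 CPM in submerged tcp21. Under submergence 5 of 11 members were lower in tcp21 than in Col and none was higher, where 14.4% of all genes were lower and 12.3% higher. In the Col mock libraries of the separate table, CYP79F1 was at 55.7 ± 8.02 CPM and MAM1 at 136 ± 16.6 CPM, levels scaled in their own table. There, submergence lowered 11 of 11 members, beside 24.1% of all genes lowered and 25.4% raised. The indole branch, which starts from tryptophan, did not move as a block. MYB34, one of its regulators, rose from 27.2 ± 3.46 to 61.9 ± 4.47 CPM (1.19 ± 0.21, adjusted p = 0.000346), while MYB51, another, fell from 46.6 ± 5.42 to 12.5 ± 2.61 CPM (-1.88 ± 0.16, adjusted p = 6.7e-09) and the enzyme gene CYP79B3 fell as well (-0.97 ± 0.11, adjusted p = 1.4e-07).

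Flavonoid genes, which make sunscreen pigments and anthocyanins, were higher for 9 of 11 members and lower for 0, with a median of 2.04. UGT78D2, a flavonol and anthocyanin glucosyltransferase, was at 20.8, 19.3 and 20.3 CPM in Col and 76.1, 85.4 and 87.7 CPM in tcp21. The gap between the groups was many times their spread (2.04 ± 0.08, adjusted p = 1.72e-17). The flavonol regulator MYB12 rose from 1.004 ± 0.363 to 8.59 ± 2.19 CPM (3.10 ± 0.28, adjusted p = 4.42e-10), and DFR, an anthocyanin enzyme, from 1.099 ± 0.525 to 4.89 ± 2.51 CPM (2.19 ± 0.37, adjusted p = 3.16e-05). PAP1, the anthocyanin regulator, was at 0.0471 ± 0.0447 CPM in Col and 1.01 ± 0.635 CPM in tcp21 (adjusted p = 0.000153).

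The iron list, which holds genes of uptake, storage and control, was higher for 12 of 16 members and lower for 2. FIT, the bHLH factor that activates IRT1 and FRO2 in roots, was at 2.71, 2.85 and 3.13 CPM in Col and 9.18, 13.5 and 7.03 CPM in tcp21 (1.78 ± 0.23, adjusted p = 3.23e-07). The ferric reductase FRO2 rose from 0.853 ± 0.308 to 4.95 ± 1.52 CPM (2.56 ± 0.39, adjusted p = 1.11e-05), and NAS1, which makes the metal chelator nicotianamine, from 3.10 ± 0.105 to 18.24 ± 1.18 CPM (2.56 ± 0.28, adjusted p = 6.59e-08). The lower members were FER1, the iron-storage ferritin (-0.86 ± 0.13, adjusted p = 4.3e-05), and BHLH101, an iron-deficiency bHLH gene (-1.40 ± 0.34, adjusted p = 0.0012). IRT1 was at 0.0296 ± 0.0257 CPM in mock tcpq, and it was at 11.9 ± 0.274 CPM in submerged Col and 10.4 ± 3.604 CPM in submerged tcp21.

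Markers of root cells moved with these genes. Of 12 root markers, 11 were higher in tcp21 and none was lower, with IRT1 among them. SCR, of the endodermis and root stem cell niche, rose from 38.7 ± 4.43 to 83.5 ± 5.14 CPM (1.11 ± 0.09, adjusted p = 4.8e-11), CASP1, of the endodermal barrier, from 20.9 ± 2.93 to 42.0 ± 4.74 CPM (1.01 ± 0.11, adjusted p = 1.83e-08), and COBL9, of root hairs, from 2.90 ± 0.618 to 9.01 ± 1.095 CPM (1.64 ± 0.20, adjusted p = 1.28e-07). The summed root markers ran from 1853 to 2157 CPM in Col and from 2394 to 2682 CPM in tcp21. The part of root tissue in the iron and nitrate differences was not tested. Of 6 stomatal lineage markers, 4 were higher, beside 23.8% of all genes, among them SPCH, which starts the lineage (1.59 ± 0.29, adjusted p = 5.07e-05). The summed stomatal markers ran from 30.9 to 35.2 CPM in Col and from 44.5 to 55.1 CPM in tcp21. Of the shoot meristem markers, 2 of 4 were tested and none was called (1 was higher with upper quartile factors), and WUS had 0 counts in all 6 libraries.

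Nitrate genes were higher for 5 of 8 members and lower for 3, beside 23.8% and 23% of all genes. The dual-affinity transporter and sensor NPF6.3 was at 48.0, 47.4 and 40.1 CPM in Col and 116, 174 and 143 CPM in tcp21 (1.68 ± 0.13, adjusted p = 4.6e-09). Nitrate reductase NIA1 rose from 387 ± 26.1 to 867 ± 53.4 CPM (1.17 ± 0.14, adjusted p = 7.83e-06) and nitrite reductase NIR1 from 138 ± 8.70 to 318 ± 65.3 CPM (1.21 ± 0.11, adjusted p = 1.31e-08). The 3 lower members were LBD37, LBD38 and LBD39, repressors of nitrate-responsive genes, with LBD39 at -0.60 ± 0.10, adjusted p = 7.8e-06.

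**Figure D3:**
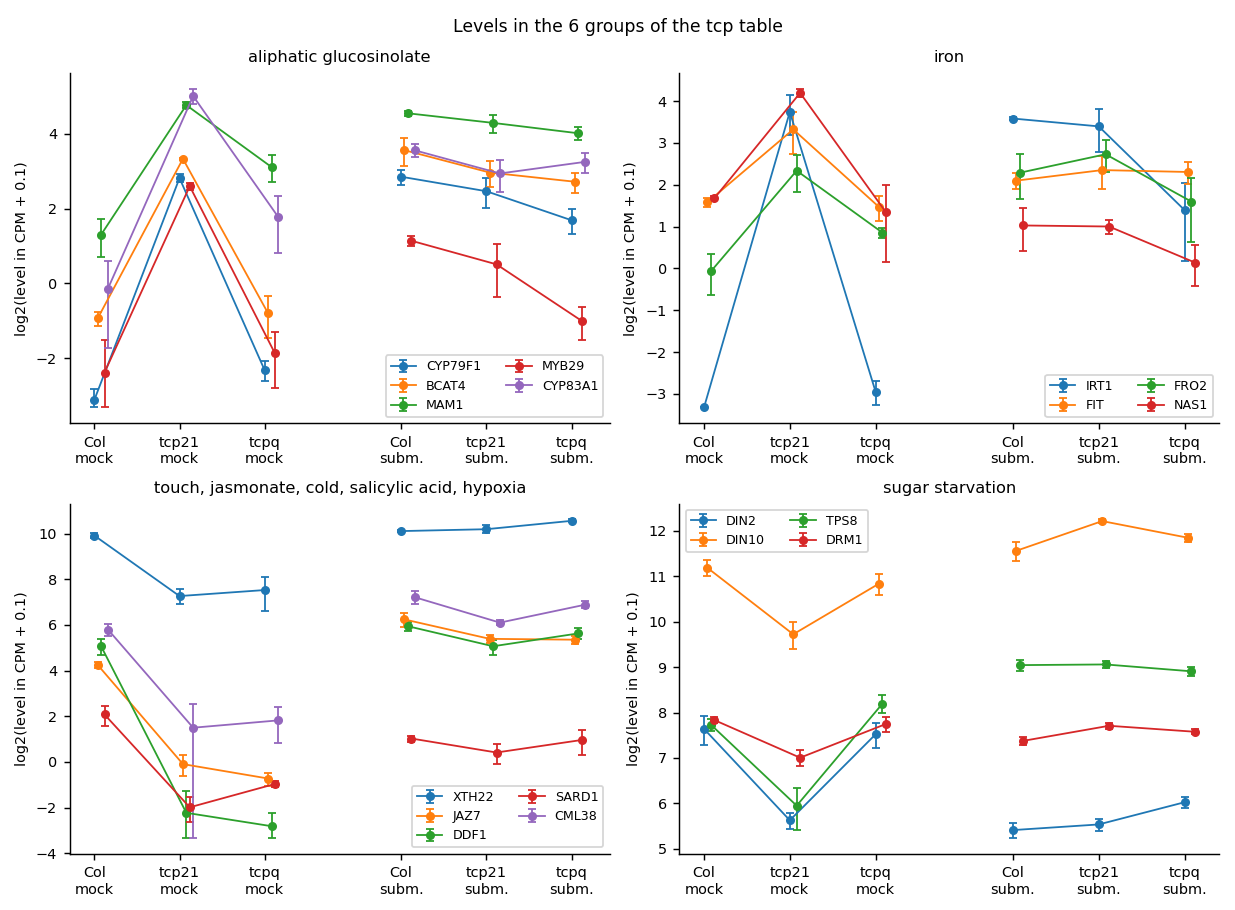
Mean levels as log2(CPM + 0.1) in the 6 groups of the table, with bars for the SD of 3 libraries, for genes of 4 panels. In mock, the glucosinolate and iron genes are higher in tcp21 than in Col, and the genes of the lower panels are lower, while submerged Col and tcp21 lie closer together.

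Nuclear photosynthesis genes were higher for 19 of 23 members and lower for none, by small steps (median 0.35). Without the first Col library 16 were higher and 0 lower, with a median of 0.29. Rubisco small subunit genes changed most among those named. RBCS2B was at 2295, 2463 and 2283 CPM in Col and 5918, 4959.6 and 5121 CPM in tcp21 (1.18 ± 0.08, adjusted p = 5.58e-13), and RBCS1B at 543, 609 and 515 and 1199.8, 1195 and 1092 CPM (1.07 ± 0.07, adjusted p = 5.27e-13). Reads may be split between these near-identical paralogs. The Rubisco activase RCA rose from 10509 ± 748 to 15735 ± 624 CPM (0.58 ± 0.06, adjusted p = 1.88e-08). The sum over the list was 94255 to 111421 CPM in Col and 131110.0 to 136635 CPM in tcp21, with 67778 to 79305 CPM in mock tcpq. In submerged Col of the same table it was 129541 to 132924 CPM.

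Transcripts encoded in the chloroplast were scarce in all libraries of this series, and they were higher in tcp21. They made up 0.029% to 0.0365% of counts in mock Col, 0.220% to 0.564% in mock tcp21, with the third tcp21 library highest, and 0.0382% to 0.0655% in mock tcpq. Of 85 tested, 74 were higher and none lower, with a median of 3.18. Without the third tcp21 library 69 were called higher and the median was 2.63. Under submergence 67 of 85 were higher in tcp21, beside 12.3% of all genes, and the genotype difference departed from that in mock for 4 of them, beside 31% of all genes. Mitochondria-encoded transcripts showed the same direction, at 0.0113% to 0.0121% in Col and 0.0353% to 0.153% in tcp21, with 13 of 27 higher and none lower. In a poly-A protocol organelle transcripts are captured in part only. The part of organelle RNA in the other differences was not tested. Nuclear genes for ribosomal proteins, taken by product name and so holding cytosolic and organellar ones, had 108 of 278 members lower and 9 higher, with a median of -0.19. Without the first Col library 3 were higher, and without the third tcp21 library 4.

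Cell cycle genes were higher for 17 of 19 members and lower for 0, with a median of 0.85. KN, the syntaxin of the dividing cell plate, was at 2.40, 1.92 and 2.56 CPM in Col and 6.70, 9.81 and 9.35 CPM in tcp21 (1.89 ± 0.19, adjusted p = 3.52e-09). The mitotic cyclin CYCB1-2 was at 2.94, 3.67 and 4.07 CPM and 12.8, 9.85 and 12.01 CPM (1.71 ± 0.20, adjusted p = 3.34e-08), and the kinase CDKB2-1 rose from 4.78 ± 1.03 to 12.3 ± 1.5003 CPM (1.36 ± 0.16, adjusted p = 7.76e-08). No tcp21 library fell within the Col range for any of the 3, which were named for their small p in this comparison. Of 12 genes for expansins and XTH enzymes, which loosen and remodel cell walls, 5 were higher, all of them expansins, and 5 were lower, all of them XTH genes. EXPA11 (1.84 ± 0.18, adjusted p = 3.29e-09) and EXPA5 (1.18 ± 0.20, adjusted p = 4.62e-05) were higher, while XTH23 fell from 190.4 ± 2.19 to 40.5 ± 7.24 CPM (-2.23 ± 0.19, adjusted p = 3.83e-07).

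The largest falls, by the same rule, reached 0 counts. The gene annotated ddf2, of the same AP2-type family as DDF1, was at 6.85, 5.36 and 8.83 CPM in Col and had 0 counts in the 3 tcp21 libraries, at least 178-fold lower by the limit of 3 counts over those libraries (adjusted p = 3.74e-11). DDF1, a relative of the CBF cold factors, was at 37.3, 24.4 and 38.3 CPM in Col and 0, 0.34 and 0 CPM in tcp21 (adjusted p = 1.97e-08). JAZ8 was at 6.67, 5.25 and 6.89 CPM in Col and 0, 0.17 and 0.111 CPM in tcp21 (adjusted p = 3.92e-11). For these 3 genes the tcp21 libraries lay at or near 0, and they were not at 0 in submerged tcp21, with 3.56 ± 1.80, 33.4 ± 7.603 and 5.92 ± 0.978 CPM. SRO5, which also belongs to the hypoxia list, fell from 47.0 ± 7.16 to 0.963 ± 0.517 CPM (-5.75 ± 0.28, adjusted p = 1.31e-10). The calmodulin-like gene CML38, of stress granules under low oxygen, fell from 55.5 ± 9.48 to 2.72 ± 3.05 CPM (-4.37 ± 0.49, adjusted p = 8.64e-06). AT4G27654 fell from 9.60 ± 2.74 to 0.287 ± 0.451 CPM (-5.12 ± 0.68, adjusted p = 1.93e-05), with the second tcp21 library higher than the other two. The tcp21 group held 20 counts of AT4G27654 in all, most of them in that library. Without that library the gene was still lower (adjusted p = 3.37e-10). The fold then depends on the prior count of the fit and is not given. AT1G15010 (-4.37 ± 0.29, adjusted p = 2.51e-08), AT2G25460 (-3.88 ± 0.13, adjusted p = 4.94e-17) and AT5G52020 (-3.75 ± 0.23, adjusted p = 2.15e-10) were the others of the 10 besides JAZ7.

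The touch list was lower for 8 of 10 genes and higher for none, with a median of -1.70. Without the third tcp21 library 7 were lower. XTH22, the wall enzyme first known as TCH4, was at 1014, 878 and 1002 CPM in Col and 193, 134 and 134 CPM in tcp21 (-2.65 ± 0.30, adjusted p = 8.17e-06). The calmodulin-like genes TCH3 (-2.28 ± 0.24, adjusted p = 4.35e-06) and TCH2 (-1.97 ± 0.29, adjusted p = 0.0001) fell too. Under submergence 1 of 10 was lower and none was higher, beside 14.4% and 12.3% of all genes, and XTH22 stood at 1103 ± 28.2 CPM in Col and 1168 ± 142 CPM in tcp21. In mock tcpq XTH22 was at 184 ± 87.0 CPM.

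Jasmonate genes divided into a larger lower part, 15 of 23, and 7 higher members. Without the first Col library 13 of 24 were lower. JAZ genes encode repressors that are themselves induced by jasmonate. JAZ7 was at 20.1, 16.9 and 19.7 CPM in Col and 0.751, 0.594 and 1.16 CPM in tcp21 (-4.55 ± 0.20, adjusted p = 1.93e-14), and JAZ6 at 67.9, 51.3 and 60.3 and 18.5, 21.1 and 22.2 CPM (-1.54 ± 0.12, adjusted p = 2.16e-10). CYP94B3, which breaks down the active hormone, fell from 81.5 ± 9.67 to 13.4 ± 1.81 CPM (-2.61 ± 0.16, adjusted p = 8.28e-10). Among the higher members were LOX2, a lipoxygenase of hormone synthesis (2.52 ± 0.31, adjusted p = 3.99e-06), JAR1, which conjugates jasmonate to isoleucine (1.07 ± 0.08, adjusted p = 5.39e-12), and the storage protein VSP2 (1.41 ± 0.33, adjusted p = 0.00138). MYC2, the central factor of the pathway, had 0 counts in all 18 libraries of the table and has an annotated gene on the opposite strand, and no level is given for it here.

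Defence genes of the salicylic acid list were lower for 11 of 18 members and higher for 1. SARD1, a factor that turns on salicylic acid synthesis, was at 2.98, 3.99 and 5.38 CPM in Col and 0.231, 0.17 and 0.0553 CPM in tcp21 (-4.57 ± 0.43, adjusted p = 8.3e-10). FMO1, which makes the systemic signal N-hydroxypipecolic acid, fell from 27.5 ± 7.64 to 7.11 ± 0.518 CPM (-1.94 ± 0.21, adjusted p = 1.45e-07), and the glutaredoxin gene GRX480 from 3.43 ± 0.59 to 0.375 ± 0.311 CPM (-3.29 ± 0.44, adjusted p = 5.23e-07). Of the pattern-triggered immunity list, 8 of 12 were lower and none was higher. The kinase gene MPK3 was at 219, 196 and 256 CPM in Col and 68.7, 69.4 and 57.0 CPM in tcp21 (-1.78 ± 0.13, adjusted p = 8.31e-09), and PHI-1, an EXORDIUM-like gene, fell from 403 ± 24.2 to 61.2 ± 18.6 CPM (-2.71 ± 0.34, adjusted p = 2.31e-05).

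Of 10 cold genes 3 were lower and 2 higher, shares near the 23% lower and 23.8% higher of all genes. CBF2 fell from 29.9 ± 3.35 to 7.06 ± 4.998 CPM (-2.07 ± 0.41, adjusted p = 0.00101), while its neighbour and near-copy CBF3 rose from 0.386 ± 0.031 to 1.62 ± 0.753 CPM (2.04 ± 0.61, adjusted p = 0.00673), so reads may be split between them. COR15A, a target of the CBF factors, was at 0.103 ± 0.0921 CPM in Col and 1.38 ± 0.309 CPM in tcp21 (adjusted p = 0.000503).

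Genes induced by darkness and sugar starvation were lower for 16 of 19 members and higher for none (median -0.92). DIN10, a raffinose synthase family gene, was at 2009, 2417 and 2559.8 CPM in Col and 935, 648 and 950.4 CPM in tcp21 (-1.46 ± 0.15, adjusted p = 2.23e-06). DIN2, a beta-glucosidase gene, was at 208, 153 and 237 CPM and 55.7, 43.5 and 48.8 CPM (-2.01 ± 0.17, adjusted p = 1.68e-07), and the trehalose phosphate synthase gene TPS8 at 203, 201 and 234 CPM and 71.3, 40.0 and 73.8 CPM (-1.79 ± 0.18, adjusted p = 2.21e-06). The tcp21 libraries lay below the Col libraries for each of them, and so did those of the dormancy-associated gene DRM1 (-0.83 ± 0.08, adjusted p = 2.87e-09). Under submergence 11 of 19 members were higher in tcp21 and none was lower, beside 12.3% of all genes higher and 14.4% lower. DIN10 was then 0.65 ± 0.15, adjusted p = 0.00576, and its genotype difference under submergence minus that in mock was 2.116 ± 0.21, adjusted p = 4.13e-06. That value was called and above 0 for 17 of the 19 members, in a test that called 31% of all genes in either direction and holds the mock values. In mock tcpq, DIN10 was at 1831 ± 289 CPM and TPS8 at 293 ± 39.1 CPM, above mock tcp21 (1.116 ± 0.15, adjusted p = 2.28e-05 and 2.25 ± 0.18, adjusted p = 1.5e-07 for tcpq over tcp21).

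Genes of autophagy and senescence, which recycle cell contents, were mostly lower or not called. Of 14 autophagy genes 7 were lower and 2 higher, the latter being 1 with RLE size factors or without the first Col library and 4 with upper quartile factors. ATG8E, of the family that tags the autophagosome, fell from 107 ± 6.52 to 50.2 ± 18.8 CPM (-1.09 ± 0.22, adjusted p = 0.00107). Among 8 senescence genes 4 were lower and 1 higher, beside 23% and 23.8% of all genes. The NAC factors NAP (-1.69 ± 0.26, adjusted p = 6.54e-06) and ORE1 (-1.03 ± 0.16, adjusted p = 6.21e-06) fell.

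**Figure D4:**
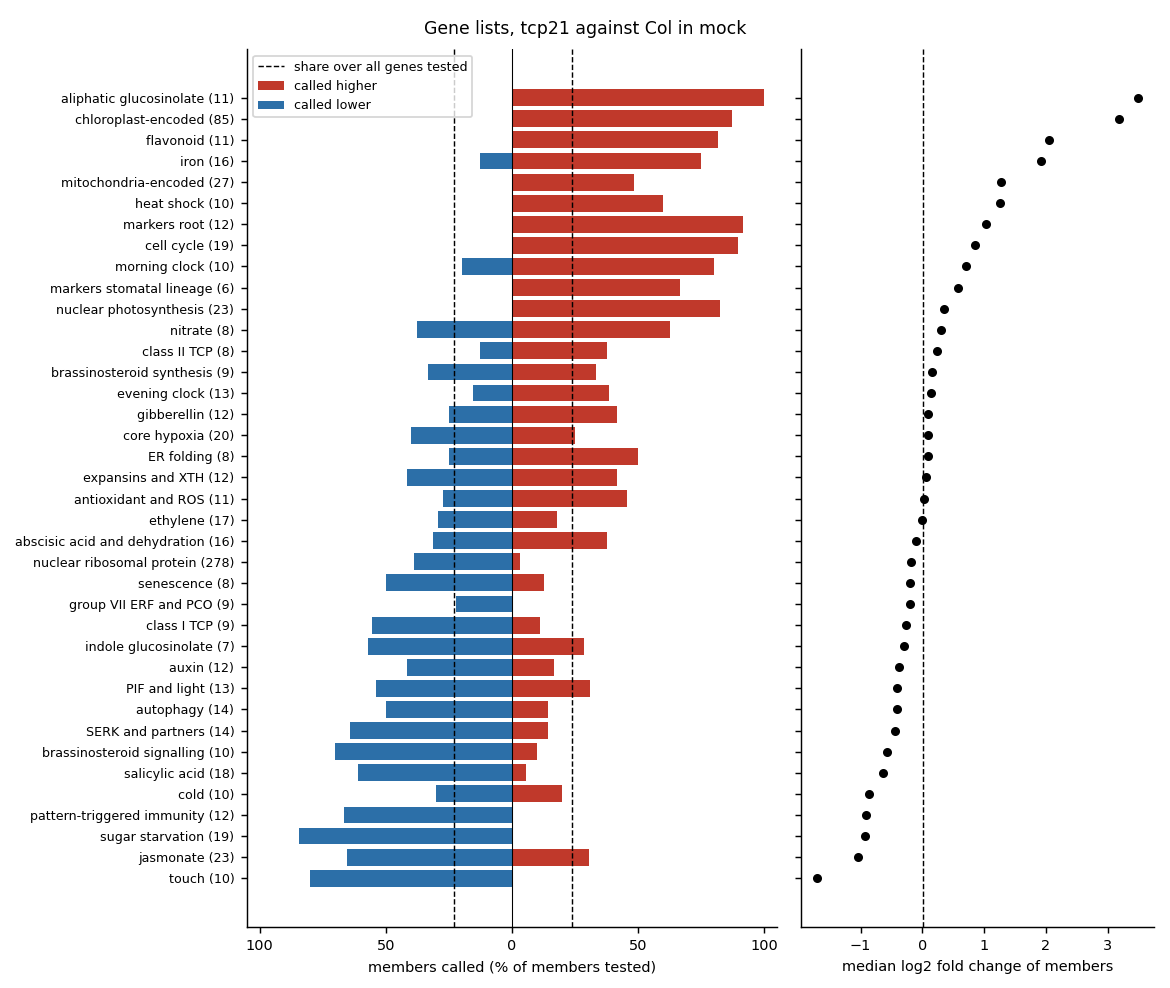
For each gene list, the share of members tested that was called higher (red) or lower (blue) in tcp21 in mock, with dashed lines at the shares over all genes, 23.8% and 23%, and on the right the median log2 fold change of its members. The number of members tested stands in brackets, and aliphatic glucosinolate and touch genes mark the ends.

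Genes of low oxygen had no common direction in mock, where 23.8% of all genes were higher and 23% lower. Of 20 core hypoxia genes 5 were higher and 8 lower, and the median was 0.09. The higher genes serve fermentation and the splitting of sucrose. The pyruvate decarboxylase gene PDC2 was at 6.63, 6.02 and 6.84 CPM in Col and 19.7, 24.4 and 20.1 CPM in tcp21 (1.72 ± 0.12, adjusted p = 4.17e-12), PDC1 at 1.602, 1.70 and 1.83 and 3.93, 6.07 and 3.597 CPM (1.41 ± 0.28, adjusted p = 0.000134), and the sucrose synthase genes SUS1 (0.90 ± 0.10, adjusted p = 3.92e-08) and SUS4 (1.44 ± 0.28, adjusted p = 9.04e-05) were higher. The alcohol dehydrogenase gene ADH1 overlapped between the groups, at 1.56, 2.85 and 2.04 CPM in Col and 1.76, 4.37 and 4.65 CPM in tcp21 (0.71 ± 0.29, adjusted p = 0.0489). Its call was lost with RLE size factors (adjusted p = 0.0546), without a filter (adjusted p = 0.0512), in a fit of the 2 groups alone (adjusted p = 0.135) and without any 1 of 4 libraries, the first Col (adjusted p = 0.207), the third Col (adjusted p = 0.118), the second tcp21 (adjusted p = 0.217) and the third tcp21 (adjusted p = 0.212). Without the first tcp21 library the value was 1.08 (adjusted p = 0.000469). Of 9 group VII ERF factors, which sense oxygen through their stability, and PCO oxidases that mark them for breakdown, 2 were lower and none was higher, a lower share near the 23% of all genes. RAP2.2 fell from 120.0 ± 4.32 to 87.8 ± 2.86 CPM (-0.45 ± 0.07, adjusted p = 1.79e-06) and RAP2.12 from 138 ± 6.46 to 119.9 ± 1.78 CPM (-0.20 ± 0.07, adjusted p = 0.015), the latter not called without the first Col library (adjusted p = 0.0721). Ethylene genes were higher for 3 of 17 members and lower for 5, with 1 higher under RLE size factors or without the third tcp21 library and 2 higher without the first Col library. The receptor ETR2 rose (0.70 ± 0.12, adjusted p = 3.42e-05) and the factor EIN3 fell (-0.60 ± 0.07, adjusted p = 7.98e-08). The synthesis gene ACS6 was at 97.8, 87.4 and 134 CPM in Col and 15.5, 67.4 and 12.2 CPM in tcp21, the second tcp21 library standing apart (-1.75 ± 0.51, adjusted p = 0.0133). Without that library the value was -2.93 (adjusted p = 1.48e-05), and in a fit of the 2 groups alone it was not called (adjusted p = 0.162).

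Other hormone genes showed mixed directions, to be read beside 23.8% of all genes higher and 23% lower. In the abscisic acid list 6 of 16 were higher and 5 lower. Its dehydration genes went both ways. RD29B (-1.22, adjusted p = 2.06e-07), RAB18 (-0.94, adjusted p = 1.51e-05) and RD20 (-1.10, adjusted p = 0.000166) were lower. The phosphatase gene ABI1, which damps the signal, rose from 41.4 ± 2.32 to 101.1 ± 17.61 CPM (1.28 ± 0.12, adjusted p = 6.86e-09), RD29A, a dehydration gene, rose from 12.1 ± 2.55 to 36.1 ± 9.63 CPM (1.57 ± 0.20, adjusted p = 2.06e-05), and CYP707A3, which breaks the hormone down, fell from 62.5 ± 26.8 to 11.6 ± 4.98 CPM (-2.41 ± 0.32, adjusted p = 4.28e-05). Gibberellin genes were higher for 5 of 12 and lower for 3, with the DELLA repressor RGL2 at 2.27, 3.17 and 2.72 CPM in Col and 14.6, 14.8 and 15.3 CPM in tcp21 (2.46 ± 0.21, adjusted p = 1.73e-10). The synthesis gene GA20OX2 (-2.12 ± 0.40, adjusted p = 7.2e-05) and the breakdown gene GA2OX2 (-1.92 ± 0.22, adjusted p = 2.13e-08) were both lower. Another breakdown gene, GA2OX1, was higher (adjusted p = 0.00343). Auxin genes were lower for 5 of 12, among them the repressor gene IAA3 (-1.20 ± 0.16, adjusted p = 3.17e-07), and higher for 2. Of the heat shock list 6 of 10 were higher and none lower. The chaperone HSP101 varied among the tcp21 libraries, at 22.4, 15.7 and 15.2 CPM in Col and 24.4, 66.7 and 41.2 CPM in tcp21 (1.297 ± 0.33, adjusted p = 0.00617). It was not called in a fit of the 2 groups alone (adjusted p = 0.0803), and without the second tcp21 library it was 0.85 (adjusted p = 0.0343). ER folding genes were higher for 4 and lower for 2 of 8, and 2 were higher without the first Col library. The stress-induced chaperone BIP3 was on the lower side (-1.02 ± 0.21, adjusted p = 0.000208). Antioxidant genes held 5 higher and 3 lower of 11, with the ascorbate peroxidase APX1 higher (0.56 ± 0.07, adjusted p = 3.5e-07) and the superoxide dismutase CSD1 lower (-1.13 ± 0.11, adjusted p = 2.3e-08).

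The mock difference was set beside contrasts from other libraries. Of the 4842 genes higher in tcp21 under mock, 1092 (22.6%) were also higher under submergence and 359 (7.41%) were lower there, beside 12.3% of all genes tested that were higher and 14.4% that were lower under submergence. Those 1092 were 43.5% of the genes higher under submergence. Of the 4696 genes lower under mock, 1316 (28.02%) were lower under submergence, which was 44.9% of the genes lower there, and 422 (8.99%) were higher. Without the third submerged Col library, 3272 genes were called under submergence in place of 5440. Across all genes the log2 fold changes of the treatments had a Pearson correlation of 0.316, a description over genes that are not independent. The glucosinolate, touch, starvation and cell cycle genes lay mostly off the diagonal, since their differences under submergence were small or of the other sign. TCP21 itself was lower by a like amount in both (-1.75 ± 0.10, adjusted p = 1.55e-12 under submergence).

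**Figure D5:**
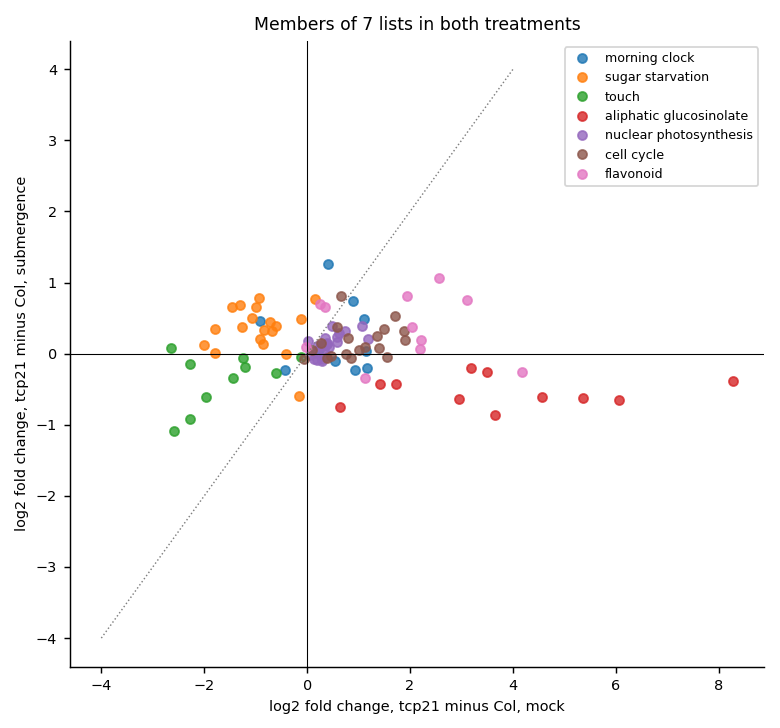
Log2 fold change of tcp21 over Col in mock (horizontal axis) and under submergence (vertical axis) for the members of 7 lists, 1 point per gene, with a dotted line of equal values. Sugar starvation genes lie at the upper left, touch genes at the left, and aliphatic glucosinolate genes at the lower right.

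A submergence response from libraries that share none with this comparison came from Col of the separate table. Among the genes higher in mock tcp21 and tested there, 1933 of 4807 (40.2%) fell on submergence and 824 (17.1%) rose. Among the genes lower in mock tcp21, 1709 of 4651 (36.7%) rose on submergence and 981 (21.1%) fell. Over the genes tested in both tables, 25.7% rose and 24.3% fell. By list, submergence raised 18 of 19 starvation genes, which were lower in mock tcp21, and lowered 15 of 19 cell cycle and 21 of 23 photosynthesis genes, which were higher. Some other lists had the same main direction in both. Of 10 touch genes 8 were lower in mock tcp21 and 8 fell on submergence, and of 7 indole glucosinolate genes 4 were lower and 5 fell. Ribosomal protein genes were lower for 108 of 278 in mock tcp21 and fell on submergence for 122 of 276, with 23 rising. CCA1 went from 167 ± 5.38 to 76.5 ± 14.9 CPM in that response and BKK1 from 36.4 ± 6.94 to 47.3 ± 5.52 CPM. Col of the table compared here did not share all of these directions. Its summed photosynthesis level was 94255 to 111421 CPM in mock and higher, 129541 to 132924 CPM, under submergence. Its CCA1 and XTH22 levels under submergence are given above. Why the Col sets differ was not tested.

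Promoters were searched for the class I TCP site over all genes with an annotated start. The site was present in 1.61% of the 20273 windows of tested genes, in 1.85% of those of higher genes and in 1.94% of those of lower genes. The evening element was in 2.96% of all tested, 2.88% of higher and 2.96% of lower windows, and the G-box in 8.86%, 9.93% and 9.37%. Besides CCA1, 8 of the named genes had a TCP site in the window. They are shown with up to 25 bases on each side, capitals marking the site, because they are the named genes in which the known binding letters of this protein family occur.
HY5, chr5:3595124-3595181, minus strand: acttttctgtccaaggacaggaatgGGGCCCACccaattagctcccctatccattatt
NIA1, chr1:29239547-29239604, minus strand: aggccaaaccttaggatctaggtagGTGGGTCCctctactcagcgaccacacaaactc
ETR2, chr3:8254539-8254596, plus strand: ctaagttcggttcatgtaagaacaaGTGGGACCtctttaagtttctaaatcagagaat
APX1, chr1:2437185-2437242, plus strand: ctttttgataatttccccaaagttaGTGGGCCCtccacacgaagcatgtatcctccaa
AT2G27420, chr2:11727684-11727741, minus strand: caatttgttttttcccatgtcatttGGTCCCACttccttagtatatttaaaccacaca
BES1, chr1:6688412-6688469, plus strand: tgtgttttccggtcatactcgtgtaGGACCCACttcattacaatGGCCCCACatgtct
DDF1, chr1:4291038-4291095, minus strand: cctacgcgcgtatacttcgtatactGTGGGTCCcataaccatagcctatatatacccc
DRM1, chr1:9935632-9935689, minus strand: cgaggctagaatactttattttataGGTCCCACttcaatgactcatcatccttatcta
The first 5 were higher and the last 3 lower in tcp21. In BES1 the stretch holds 2 sites. A match is a description of letters and not evidence of binding.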

How the data were processed

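RNA-seq counts per gene were used from 2 tables that the authors deposited, with 18 libraries in the one that holds Col, tcp21 and tcpq and 12 in the other. Per the labels' protocols, poly-A RNA of seedlings was fragmented, primed with random hexamers and sequenced on Illumina machines. Per the submitters' processing notes, reads were trimmed with fastp 0.23.1 and aligned with STAR 2.7.9a to TAIR10. For the counting tool, its strand setting and the annotation, nothing was stated (not given in the sources used here). The deposited counts are whole numbers per gene, not normalised. Totals of the 6 libraries compared ran from 17466180 to 33957452, which limits precision for genes of a few CPM, and intervals or limits from counts cover counting error only.

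All 18 libraries were fitted together, by group, with edgeR 4.0.16 in R 4.3.3 (limma 3.58.1 underneath). TMM scaling, the filterByExpr filter and the robust quasi-likelihood F test were used, and p-values were adjusted by the Benjamini-Hochberg method over all 20385 genes tested. The other table was fitted separately, with 20666 genes tested. The SE of a log2 fold change is its size divided by the square root of F. CPM uses TMM-scaled totals. Where a group held 10 counts or fewer for a gene, CPM is given in place of a fold, and a bound uses 3 counts over the group. Steps were tested on simulated data.

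Named genes were TCP21, BKK1 and BAK1, the class I TCP genes, and the 10 largest rises and falls. These rises and falls were nuclear, with a mean of 5 CPM or more in the higher group and no overlap. Up to 5 called members per direction of each list were added, from those with the smallest p in this comparison. RD29B, RAB18, RD20, GA2OX1, LBD37, LBD38, BIN2 and BAS1 were named beside these and are not among the 136 named genes counted below. The members of the comparison, the gene lists and the tests were chosen with earlier results of these data known. Gene IDs were matched to the RefSeq annotation of TAIR10.1 for 32548 of 32833 genes, and promoter sequences come from that assembly. Alternatives were RLE and upper quartile factors, no filter, DESeq2 1.42.0, a replicate block, the 2 groups alone, a test against 2-fold, and leaving out each library. Library duplicates were checked for and not found, the chi-square between replicates being 5.51 to 19.0 per gene.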

Additional observations from a re-analysis of the deposited data

Results flagged for a closer look

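Of 136 named genes tested, 113 had a genotype difference under submergence that departed from the one in mock, beside 31% of all genes, by the interaction term of the edgeR quasi-likelihood fit with Benjamini-Hochberg adjustment (adjusted p below 0.05). These genes were named for their values in mock, and the interaction holds those same mock values, so a smaller difference under submergence is partly set by the choice. The difference was smaller under submergence for 111 of the 113. For 10 genes it was called in both treatments with opposite signs, namely BCAT4, BAT5, RVE8, RVE2, EXPA5, JAR1, DIN10, DRM1, RAP2.2 and APX1. Each value that follows is the log2 difference of tcp21 over Col under submergence minus that in mock, with 62 values below 0 and 51 above 0. Values of genes at or near 0 counts in a group depend on the prior count of the fit and only give the direction.

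Glucosinolate genes gave -8.66 for CYP79F1, -7.07 for FMO GS-OX3, -6.71 for MYB29, -5.98 for CYP83A1, -5.16 for BCAT4, -3.75 for MAM1 and -3.59 for BAT5. The indole regulators gave -1.64 for MYB34 and 1.45 for MYB51. For iron genes it was -11.38 for IRT1, -1.52 for FIT, -2.11 for FRO2, -2.60 for NAS1, 1.198 for FER1 and 1.71 for BHLH101. Other large rises in mock gave -6.50 for AK3, -3.64 for AT2G27420, -3.48 for AT4G34550 and -3.75 for UMAMIT14. The large falls in mock gave 9.63 for ddf2, 3.25 for AT4G27654, 3.56 for AT1G15010, 3.62 for AT2G25460, 2.78 for AT5G52020 and 7.35 for DDF1. Hypoxia genes gave 4.63 for SRO5, 3.26 for CML38, -1.13 for PDC2, -1.87 for PDC1 and -1.13 for SUS4. Group VII and ethylene factors gave 0.63 for RAP2.2, 0.35 for RAP2.12 and 0.52 for EIN3.

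Clock genes gave -1.11 for CCA1, -1.15 for LHY, -1.36 for RVE8, -0.61 for LNK1, 1.37 for RVE2, -1.56 for PRR9, -1.46 for PRR5, 0.69 for PRR7, -1.04 for GI and -2.44 for ELF4. Light genes gave -1.35 for HY5, -1.14 for PHYB, -0.53 for COP1, 1.25 for PIF4, 0.83 for PIF5, 1.18 for PIF1 and 0.47 for CRY1. TCP genes gave 0.45 for TCP8, 0.71 for TCP14, 1.96 for TCP19, -0.75 for TCP23, -0.82 for TCP2 and 0.50 for TCP13. For SERK and brassinosteroid genes it was 0.73 for BKK1, -0.56 for SERK2, 0.53 for BRI1, 0.81 for BES1, 1.80 for BEE3, -0.97 for BKI1, -0.62 for BR6OX2 and 0.35 for CPD.

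Flavonoid genes gave -1.67 for UGT78D2, -2.34 for MYB12, -2.13 for DFR and -4.44 for PAP1. Nitrate genes gave -1.42 for NPF6.3, -0.99 for NIR1, -0.77 for NIA1 and 0.79 for LBD39. Photosynthesis genes gave -0.68 for RBCS1B, -0.97 for RBCS2B and -0.42 for RCA. Growth genes gave -1.71 for KN, -1.18 for CYCB1-2, -1.12 for CDKB2-1, -1.92 for EXPA11, -2.74 for EXPA5, 2.73 for XTH22 and 2.60 for XTH23. Root and stomatal markers gave -1.30 for COBL9, -0.77 for SCR, -0.66 for CASP1 and -1.24 for SPCH.

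Touch genes gave 2.14 for TCH3 and 1.36 for TCH2. Jasmonate genes gave 4.25 for JAZ8, 3.69 for JAZ7, 0.83 for JAZ6, 2.42 for CYP94B3, -2.76 for LOX2, -1.46 for JAR1 and -1.71 for VSP2. Defence genes gave 3.92 for SARD1, 1.09 for FMO1, 1.61 for MPK3 and 2.87 for PHI-1. Starvation and senescence genes gave 2.14 for DIN2, 2.116 for DIN10, 1.80 for TPS8, 1.16 for DRM1, 0.63 for ORE1 and 1.97 for NAP. The remaining genes gave -1.02 for ABI1, -1.15 for RD29A, -1.73 for RGL2, 1.72 for GA2OX2, 0.61 for IAA3, -4.27 for COR15A, 1.27 for BIP3 and -0.82 for APX1.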

How the results depend on the processing

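For the mock comparison, the number of genes called stayed within 1.5 times the reported 9538 with RLE factors (9481), upper quartile factors (9574), no filter (9287), DESeq2 (9442, with 4047 adjusted p-values not given by the tool) and a fit of the 2 groups alone (7980). A test against 2-fold called 1019, of which 555 were higher and 464 lower, because it asks for a larger change. Without any 1 library the number ran from 8219 to 9016, the higher genes from 4147 to 4595 and the lower genes from 4072 to 4423. Leaving out 1 library gave 3272 to 5522 under submergence, where the third submerged Col library gave the lowest and the cause was not tested. The same ranges were 5435 to 6328 for the interaction, 9653 to 10175 for tcpq against tcp21, and 8979 to 10114 for Col of the other table. Of the calls, 56.2% were higher with upper quartile factors, 48.2% with RLE factors and 50.8% as reported, with medians of all genes at 0.0465, -0.0134 and 0.0042.

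Replicate numbers of the labels did not pair the samples. Deviations of same-numbered libraries correlated at -0.0306 to 0.0519 between mock Col and mock tcp21, and at -0.0761 to 0.0681 over all groups. With the replicate block, 9382 genes were called, 4737 higher and 4645 lower. Of 136 named genes 131 were called, and none of these changed sign in any alternative run. TCP22 and PRR3, called in none, changed sign in some (TCP22 to 0.022 with upper quartile factors, PRR3 to 0.060 without the third Col library). The test against 2-fold, tried on named genes after seeing the data, called 66 of them, 34 higher and 32 lower. In the other alternatives the calls lost were those of TCP7, SERK1, TOC1, ADH1, RAP2.12, ACS6 and HSP101, given in the report. Counts in gene lists under upper quartile factors, without the first Col library and without the third tcp21 library were chosen after seeing the data. With upper quartile factors 2 salicylic acid genes were higher in place of 1.

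Depth limits genes below about 5 CPM, and 3 libraries a side cannot reach an exact permutation p below 0.1 for a single gene, so calls rest on the spread shared over genes.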
